A study of Homo sapiens with 6 samples.

Results

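The ANKRD13 family is a group of 4 human genes, ANKRD13A, ANKRD13B, ANKRD13C and ANKRD13D, that encode proteins with ankyrin repeats. Their RNA was examined in LM3 cells, an established human hepatocellular carcinoma (HCC) cell line, after stable knockdown of the zinc finger gene ZNF706. The members were taken by gene symbol from a table of 33007 genes, each symbol occurred in 1 row, and all 4 were among the 18390 genes with enough counts to be tested. The family was selected on the log2 fold change of ANKRD13C, already known to be lower after knockdown in these samples, so the values of ANKRD13C are a description and no p-value is given for it. The other 3 members came in through their symbols alone.

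The series held 3 samples of LM3 cells labelled control and 3 labelled as ZNF706 knockdown, and the genotype of all 6 was given as WT. Per the study's methods, short hairpin RNAs were carried by the lentiviral vector pLKO.1 and the infected cells were selected with puromycin. Per the paper, the control cells carried the vector, and the labels give them as control only. The labels do not say which hairpin the knockdown samples carried, and nothing states that the 3 samples of a group came from separate cultures, so the p-values measure only the spread between these samples. The total count per sample was 62684076, 64713764 and 63054445 in the control group and 68548419, 65861994 and 69057423 in the knockdown group. Every knockdown sample was thus deeper than every control sample. ZNF706, the targeted gene, had a CPM value (counts scaled to library size by the TMM method) of 51.9, 55.1 and 54.7 in the controls and 33.5, 30.8 and 32.8 after knockdown, which leaves 60.1% of the control level (log2 fold change -0.73, standard error 0.050).

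The labels give the cells as HCC from liver. Simple epithelial keratins were abundant, with a mean FPKM (fragments per kilobase of gene, scaled to the size of the library) in control samples of 193 for KRT8 and 271 for KRT18. The summed FPKM of the 4 epithelial markers was 452, 459 and 480 in the controls and 451, 466 and 469 after knockdown. KRT19 (mean FPKM 0.463 in the control group, log2 fold change 0.83, edgeR adjusted p = 0.054) and EPCAM (mean FPKM 0.127) were low, and no call was made for either. For the marker counts that follow, 22.8% of all tested genes were called, 12.4% lower and 10.4% higher. The 7 hepatocyte markers were low: their summed FPKM was 3.57, 7.52 and 8.80 in the controls and 3.40, 3.67 and 2.71 after knockdown, and 2 of the 7, APOB and SERPINA1, fell. For ALB, control replicate 1 had 189 counts against 899 and 882, and knockdown replicate 3 had 138 against 587 and 635. AFP, APOA1, APOB, TTR and SERPINA1 were also lowest of the controls in control replicate 1, with 71 AFP counts against 230 and 252. HNF4A alone went the other way there, with 122 counts against 30 and 64. In knockdown replicate 3 AFP (31 counts against 189 and 156), TTR and HNF4A were also lowest of their group. APOA1 (138 counts against 0 and 4) and SERPINA1 were highest there, and APOB lay between. ALB was the most abundant of the list by FPKM in the control group (mean 2.63). Of the immune markers, PTPRC had 8, 8 and 0 counts in the controls and 0 in every knockdown sample, LYZ did not pass the test (log2 fold change -1.71, adjusted p = 0.21), and CD3E was not analysed here. The endothelial list had a summed FPKM of 1.79, 1.91 and 2.06 in the controls and 1.43, 1.61 and 1.69 after knockdown, and CDH5, the cadherin of endothelial junctions, fell (-0.70, adjusted p = 0.0014). It was 1 of 2 endothelial genes tested, and the other, PECAM1, did not pass the test (0.15, edgeR adjusted p = 0.54). The stromal list had a summed FPKM of 8.41, 7.64 and 7.95 in the controls and 9.56, 9.79 and 9.39 after knockdown, most of it COL1A1 (mean FPKM 7.05 and 8.40), and 2 of its 4 genes, COL1A1 and PDGFRB, rose. The adjusted p-values are from edgeR. The part of these lists in the results for the ANKRD13 genes was not tested.

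As background, ANKRD13A, ANKRD13B and ANKRD13D carry ubiquitin-interacting motifs (UIMs), short helices near the end of the protein that bind ubiquitin chains. Through them the 3 proteins associate with ubiquitinated cell surface receptors, best known for the epidermal growth factor receptor EGFR, and affect how the receptor is taken up into the cell. ANKRD13C is the divergent member. It is found at the endoplasmic reticulum, where it has been described as a chaperone for newly made G protein-coupled receptors (GPCRs) such as the prostaglandin D receptor PTGDR.

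ANKRD13C (ENSG00000118454) lies on the minus strand of chromosome 1, from 70258999 to 70354734 of GRCh38. The bases just before its start are shown because a divergent gene starts within them, which allows the levels on both sides of a shared promoter region to be compared. The stretch is chr1:70354723-70354972, minus strand, from RefSeq on GRCh38.p14. It is printed 5′ to 3′ and ends at the base before the RefSeq start of ANKRD13C. Capitals mark the 88 bases between that start and the start of the divergent non-coding gene, named ANKRD13C-DT by RefSeq and HHLA3 in the deposited table.
ANKRD13C upstream: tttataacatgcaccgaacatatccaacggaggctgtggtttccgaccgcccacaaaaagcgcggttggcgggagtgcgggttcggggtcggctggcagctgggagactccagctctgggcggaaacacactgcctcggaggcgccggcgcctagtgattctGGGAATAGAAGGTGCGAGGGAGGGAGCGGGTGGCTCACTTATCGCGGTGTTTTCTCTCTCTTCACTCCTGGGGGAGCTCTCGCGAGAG

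The capitals contain the palindrome CTCGCGAG. Searched on both strands of the RefSeq windows that run from 250 bases before a start to shortly after it, CTCGCGAG was found in 1.06% of 27305 promoters, among them those of ANKRD13C and ANKRD13C-DT, whose windows overlap, and not in those of ANKRD13B or ANKRD13D. The GC box GGGCGG, present in 44.6% of promoters, was found in the windows of ANKRD13B, ANKRD13C and ANKRD13D. TATAAA, present in 12% of promoters, was found among the members in that of ANKRD13C alone, far upstream and on the opposite strand. The promoter of ANKRD13D was the most GC-rich of the 3 at 83.7%, followed by ANKRD13B at 70% and ANKRD13C at 60.7%, against a median of 58.3% over all promoters. A match is a description of the sequence and not of a bound site. The promoter of ANKRD13A was not analysed here.

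ANKRD13C, selected for its fall, was lower in every knockdown sample than in any control sample, as were 19.7% of tested genes in CPM. It had 3406, 3537 and 3065 counts in the controls and 1800, 1670 and 1609 after knockdown, although the latter were sequenced more deeply. The corresponding CPM values were 55.0, 55.6 and 49.9 against 25.7, 24.9 and 23.0, or 53.5 ± 3.14 (SD, n = 3) for control and 24.5 ± 1.38 (SD, n = 3) for knockdown. The values within each group lie close together. The log2 fold change was -1.13 (standard error 0.063, 95% interval -1.27 to -0.99), which leaves 45.8% of the control level. The interval takes no account of the selection of the gene on this value. Among the 14125 genes whose mean count reached 50, 50 had a lower log2 fold change. In bulk RNA, fewer cells that express a gene and less of its RNA per cell cannot be told apart. Over 15 other ways of processing, the log2 fold change of ANKRD13C was between -1.18 and -0.90, and the smallest change was on log2(FPKM + 1), a scale on which the added 1 understates changes of genes at this level.

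**Figure D1:**
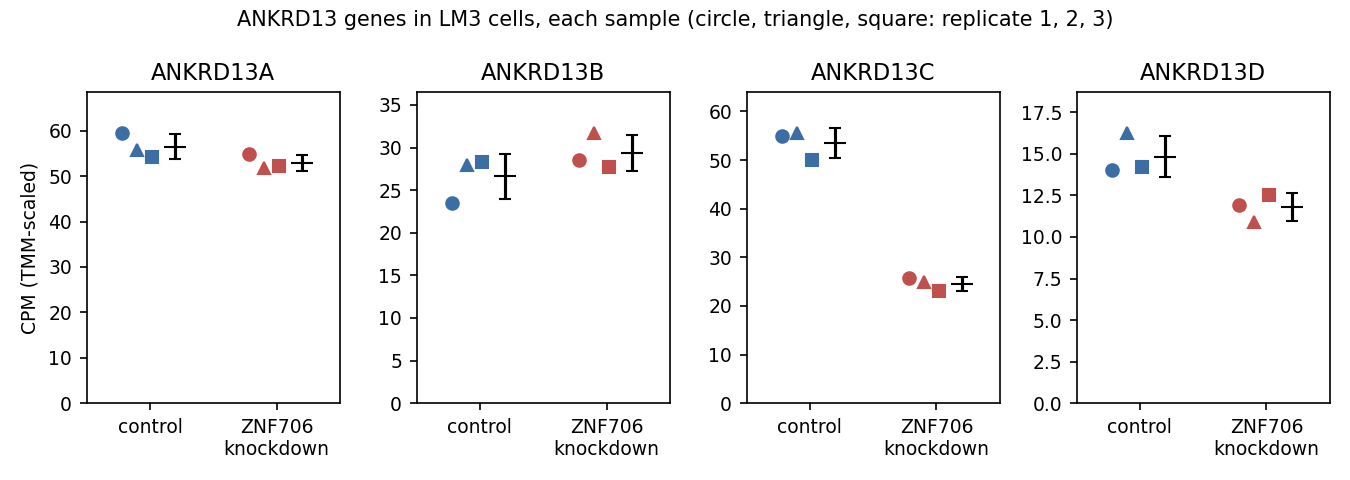
CPM of each ANKRD13 gene in the 3 control (blue) and 3 ZNF706 knockdown (red) samples, with the mean and SD of each group in black. Each vertical axis starts at 0 and has its own range. ANKRD13C goes from between 49.9 and 55.6 to between 23.0 and 25.7. The groups overlap for ANKRD13A and ANKRD13B, and those of ANKRD13D do not.

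Among the UIM-bearing members, ANKRD13D was the single one past the threshold. Over all genes tested, the quasi-likelihood test of edgeR (Benjamini-Hochberg adjusted) called 4192 genes at an adjusted p below 0.05 (22.8%), of which 2286 (12.4%) were lower and 1906 (10.4%) were higher after knockdown. This balance turned when edgeR used library size alone, with 1518 lower and 2742 higher. It also turned by limma on log2(FPKM + 0.1), with 1539 lower and 2279 higher of 11399 genes tested, where the scale, the test and the filter all differ. Of the 3 members that the selection did not rest on, 1 was called lower and none higher, a number too small to set against that background. ANKRD13C, which fixed the selection, is left out of this count.

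ANKRD13D (ENSG00000172932, chromosome 11, 67289300 to 67302484, plus strand), the least abundant member, had 869, 1035 and 871 counts in the controls and 838, 730 and 878 after knockdown. The raw counts of the groups overlap. After scaling they do not, with CPM values of 14.0, 16.3 and 14.2 in the controls against 11.9, 10.9 and 12.5 after knockdown, or 14.8 ± 1.25 and 11.8 ± 0.843 (SD, n = 3 each). Groups without overlap in CPM were found for 39.4% of all tested genes, and for 19.7% with the knockdown samples lower. The log2 fold change of ANKRD13D was -0.33 (standard error 0.098, 95% interval -0.55 to -0.11, edgeR adjusted p = 0.036), which leaves 79.5% of the control level. A two-sided exact permutation test of the log2 CPM values gave p = 0.1, the smallest that 3 samples against 3 allow. The call was fragile. ANKRD13D passed the threshold in 5 of 15 other ways of processing, with adjusted p-values from 0.023 to 0.14 and a log2 fold change below 0 in each, between -0.38 and -0.19. It was lost when control replicate 2 (edgeR adjusted p = 0.12), control replicate 3 (0.061), knockdown replicate 1 (0.077) or knockdown replicate 2 (0.14) was left out, and when library size alone set the scale (-0.28, adjusted p = 0.070).

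ANKRD13A (ENSG00000076513, chromosome 12, 109999186 to 110039428, plus strand), a UIM protein, did not pass the test. It had 3689, 3542 and 3326 counts in the controls and 3849, 3469 and 3654 after knockdown. In CPM these were 59.6, 55.7 and 54.2 against 54.9, 51.7 and 52.2, so that knockdown replicate 1 lay inside the range of the control samples. The means were 56.5 ± 2.79 and 52.9 ± 1.70 (SD, n = 3 each). The log2 fold change was -0.09 (standard error 0.047, edgeR adjusted p = 0.19), with a 95% interval of -0.20 to 0.011.

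ANKRD13B (ENSG00000198720, chromosome 17, 29589769 to 29614761, plus strand), a UIM protein closely related to ANKRD13D, had 1456, 1777 and 1739 counts in the controls and 2004, 2130 and 1941 after knockdown. All 3 raw counts were higher after knockdown, and after scaling to CPM by TMM the groups overlapped. In the deposited FPKM they did not, with 4.74 to 5.61 in the controls against 5.72 to 6.58. The share of all genes without overlap in FPKM was not computed. The CPM values were 23.5, 28.0 and 28.3 against 28.6, 31.8 and 27.7, or 26.6 ± 2.67 and 29.4 ± 2.12 (SD, n = 3 each), with control replicate 1 the lowest of the 6. The log2 fold change was 0.14 (standard error 0.087, 95% interval -0.053 to 0.34, edgeR adjusted p = 0.29). Neither ANKRD13A nor ANKRD13B was called under any of the 15 alternatives, and neither changed sign. Their exact permutation tests (two-sided, on log2 CPM) gave p = 0.2 for ANKRD13A and p = 0.3 for ANKRD13B.

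To compare the genes with each other, the deposited FPKM values were used, which are scaled to gene length. The order of the genes and their shares of a sum thus depend on the length the authors took for each. In the control samples ANKRD13C (6.89 to 7.76) and ANKRD13A (6.29 to 7.05) were the most abundant members and their ranges overlapped. ANKRD13B followed at 4.74 to 5.61 and ANKRD13D at 2.04 to 2.37, each separated from its neighbours in this order. In the knockdown samples the order was ANKRD13A (6.28 to 6.66) and ANKRD13B (5.72 to 6.58), with overlapping ranges, then ANKRD13C (3.31 to 3.70) and ANKRD13D (1.64 to 1.88). ANKRD13C thus moved from among the most abundant members to a level below ANKRD13B.

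The summed FPKM of the family was 21.59, 22.25 and 20.83 in the controls and 18.06, 18.09 and 17.23 after knockdown. ANKRD13C made up 35.8%, 34.9% and 33.1% of this sum in the controls and 20.5%, 19.8% and 19.2% after knockdown. Without ANKRD13C the mean sum was 14.1 in the control group and 14.3 in the knockdown group. The FPKM values are the same counts scaled to library size instead of by TMM, and hold no independent evidence. ANKRD13A, for example, was -0.04 by limma on log2(FPKM + 0.1), against -0.09 on the TMM scale. The direction of so small a difference in the sum may therefore depend on the scale.

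**Figure D2:**
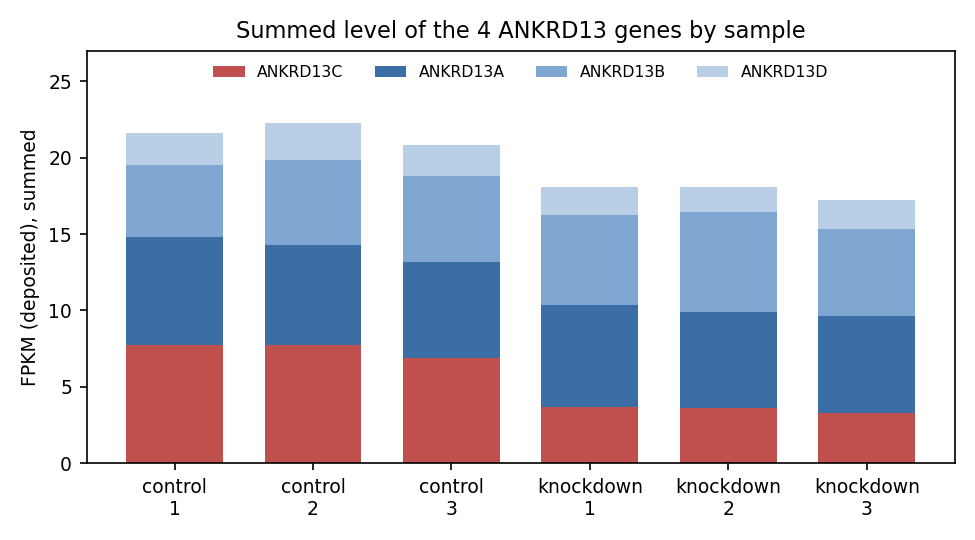
Deposited FPKM of the 4 ANKRD13 genes, stacked for each of the 3 control and 3 ZNF706 knockdown samples. The stacks reach 20.83 to 22.25 in the controls and 17.23 to 18.09 after knockdown, and the red part, ANKRD13C, shrinks from 33.1% or more of the stack to 20.5% or less.

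ANKRD13C also stands apart from the other members in protein sequence. Proteins were translated from the coding sequences of GENCODE release 29, which gave lengths of 590 residues for ANKRD13A, 626 for ANKRD13B, 541 for ANKRD13C and 605 for ANKRD13D. In global alignments ANKRD13B and ANKRD13D were the most alike, with 66.2% identical residues, and ANKRD13A shared 53.2% with ANKRD13B and 54.8% with ANKRD13D. ANKRD13C shared 39.0%, 38.6% and 39.2% with ANKRD13A, ANKRD13B and ANKRD13D. The core of a UIM was searched as alanine, any 3 residues, serine, any 2 residues and an acidic residue. In the last 150 residues it occurred 2 times in each of ANKRD13A, ANKRD13B and ANKRD13D and 0 times in ANKRD13C, and 0.467% of 19481 human proteins had 2 or more such matches there. The matches began at residues 491 and 557 of ANKRD13A, 511 and 593 of ANKRD13B, and 490 and 572 of ANKRD13D. ANKRD13C had 1 match in the whole protein, at residue 182 and thus outside that stretch, and 26.7% of proteins had at least 1. A match to so short a pattern is not evidence of ubiquitin binding.

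**Figure D3:**
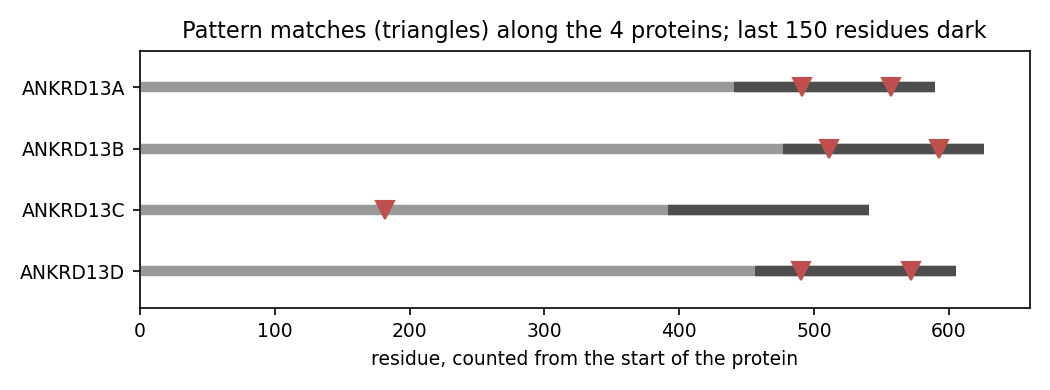
Length of the 4 ANKRD13 proteins in residues (grey bars), with the last 150 residues in dark grey and each match to the UIM core pattern as a red triangle. ANKRD13A, ANKRD13B and ANKRD13D each carry 2 matches in the dark stretch, and the single match of ANKRD13C lies at residue 182.

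The change of ANKRD13C was next compared with that of the genes around it. HHLA3, the divergent non-coding gene whose start in the deposited table lies 71 bases from that of ANKRD13C, had 125, 146 and 121 counts in the controls and 142, 146 and 105 after knockdown. Its groups overlap, and its log2 fold change was -0.14 (standard error 0.21, edgeR adjusted p = 0.69). The 95% interval of -0.61 to 0.32 is wide, at counts this low, and no test of the difference from ANKRD13C was made. SRSF11, a splicing factor gene past the end of ANKRD13C, had CPM values of 244.9, 242.2 and 251.4 in the controls and 201.8, 197.3 and 194.9 after knockdown. It fell by 0.31 on the log2 scale (standard error 0.033, edgeR adjusted p = 0.00024), a call kept under all 15 alternatives. LRRC40, a gene of leucine-rich repeats next to SRSF11, did not pass the test (-0.04, edgeR adjusted p = 0.65). CTH, the cystathionine gamma-lyase of cysteine synthesis, did not pass the test (-0.10, edgeR adjusted p = 0.51). With a sample left out CTH was -0.15 to -0.04. HHLA3-AS1, AL353771 and AL354872 had too few counts to be tested, with at most 14 counts in a sample.

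**Figure D4:**
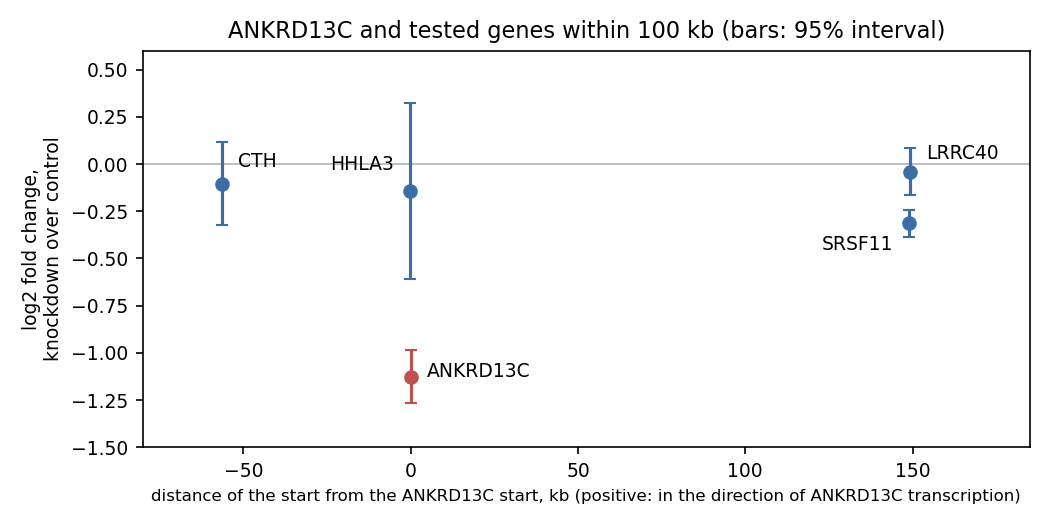
Log2 fold change (vertical axis, knockdown over control) of ANKRD13C (red) and of the 4 tested genes within 100 kb of it (blue), against the distance between their starts in kb. Bars are 95% intervals, and that of ANKRD13C takes no account of its selection. The points lie at -1.13 for ANKRD13C, -0.14 for HHLA3, -0.10 for CTH, -0.04 for LRRC40 and -0.31 for SRSF11.

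Genes that overlap the other members matter because the sources do not say whether reads were counted by strand. C12orf76 lies on the opposite strand and shares 12401 bases with ANKRD13A. It had 217, 198 and 189 counts in the controls and 359, 325 and 348 after knockdown, and rose by 0.62 on the log2 scale (standard error 0.13, edgeR adjusted p = 0.0080). Reads on the shared bases cannot be assigned with certainty, so the level of ANKRD13A is uncertain to that extent. AC007546, a short gene inside ANKRD13A, had 10 to 17 counts per sample and did not pass the test (-0.52, edgeR adjusted p = 0.59). CORO6, a coronin gene, overlaps ANKRD13B by 6 bases and did not pass it either (0.42, edgeR adjusted p = 0.11). With a sample left out CORO6 was 0.19 to 0.52. AC104564, inside ANKRD13B, had too few counts to be tested. No gene of the table overlapped ANKRD13C or ANKRD13D.

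The genes with which the family is known to work were then examined in lists drawn up by function. Over all 18390 tested genes, 22.8% were called, 12.4% lower and 10.4% higher, and the median log2 fold change was 0.0095. These shares are the background for each list that follows, and no set test was run. EGFR, the receptor bound by the UIM-bearing members after its ubiquitination, had CPM values of 176 ± 7.64 in the control group and 220 ± 12.1 in the knockdown group (SD, n = 3 each). It rose by 0.32 on the log2 scale (standard error 0.048, edgeR adjusted p = 0.0014). CBL, a ubiquitin ligase for EGFR, fell by 0.32 (standard error 0.048, edgeR adjusted p = 0.0014), from 102 ± 5.83 to 81.7 ± 2.79 CPM (SD, n = 3 each). Both calls were kept under all 15 alternatives. SH3KBP1, an adaptor that binds CBL, rose by 0.33 (edgeR adjusted p = 0.014), a call lost without knockdown replicate 2 (edgeR adjusted p = 0.064). In the list of EGFR and its ubiquitination, 10 of 12 genes were tested. Of them 2 were lower, 3 were higher and 5 were not called, or 50% called against 22.8% over all, with a median of -0.03.

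The list of other ubiquitin-binding endocytic adaptors went both ways. Of 16 genes 15 were tested, 3 were lower, 2 were higher and 10 were not called. The share called was 33.3%, against 22.8% of all tested genes, and the median log2 fold change was 0.02. Scaled by library size, and by limma on log2(FPKM + 0.1) and log2(FPKM + 1), 1 was lower and 4 were higher. All tested genes also leaned higher there, with 1518 lower and 2742 higher by library size. STAM, part of the complex that sorts ubiquitinated receptors on endosomes, fell by 0.39 (edgeR adjusted p = 0.0028). TOM1L2 rose by 0.40 (edgeR adjusted p = 0.0032), and EPN1, an epsin with UIMs, rose by 0.16 (edgeR adjusted p = 0.039), a call lost under 7 of 15 alternatives, among them 5 of the 6 that leave out a sample. Among 10 other UIM proteins that are not endocytic adaptors, 1 was called, the proteasome's ubiquitin receptor PSMD4, which rose by 0.21 (edgeR adjusted p = 0.013). The share called in that list was 10%, against 22.8% over all, and its median was 0.03.

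In the list of the clathrin coat and of membrane fission, 19 of 20 genes were tested. Of these 3 were lower, 5 were higher and 11 were not called, or 42.1% called against 22.8% over all, with a median of -0.06. With library size alone 3 were lower and 9 were higher, where 1518 of all 18390 tested genes were lower and 2742 higher. The largest called changes were in DNM3, DNM1 and CLTCL1. DNM3, a dynamin, rose by 0.97 (edgeR adjusted p = 0.0030), a call lost by limma on FPKM without a filter (adjusted p = 0.12), and had a mean FPKM of 0.173 in the control group and 0.360 in the knockdown group. DNM1, another dynamin, fell by 0.78 (edgeR adjusted p = 0.018), a call lost without control replicate 1, knockdown replicate 2 or knockdown replicate 3, and by limma on FPKM without a filter (adjusted p = 0.32). CLTCL1, the second clathrin heavy chain, rose by 0.77 (edgeR adjusted p = 0.00041).

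VCP and caveolin are also known partners of the UIM-bearing members. For caveolae and VCP, 10 of 11 genes were tested, 1 was lower, 3 were higher and 6 were not called. That is 40% called, against 22.8% over all, and the median was 0.03. CAV1, the main caveolin, had 6310, 6455 and 5579 counts in the controls and 10125, 9320 and 9548 after knockdown, and rose by 0.51 (standard error 0.049, edgeR adjusted p = 0.00015). Of the 4 genes for cavins, the coat proteins of caveolae, CAVIN3 rose by 0.32 (edgeR adjusted p = 0.010) and CAVIN1 fell by 0.26 (edgeR adjusted p = 0.00050), and CAVIN2 and CAVIN4 were not called. VCP, the ATPase that extracts ubiquitinated proteins from complexes, did not pass the test (0.04, standard error 0.029, edgeR adjusted p = 0.34), and was called under 3 of 15 alternatives, library size alone and limma on FPKM with either added constant.

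Few genes of GPCR export, the process tied to ANKRD13C, could be tested. Of 15 listed genes 12 were in the table and 7 were tested, and PTGDR was not analysed here. REEP3, a shaping protein of the endoplasmic reticulum, fell by 0.23 (edgeR adjusted p = 0.0050). The other 6 tested genes were not called, which leaves 14.3% called against 22.8% over all, and the median of the list was 0.06. Among the other genes with ANKRD symbols, a list taken by symbol that includes non-coding genes and pseudogenes, 38 of 68 were tested. Of these 4 were lower, 1 was higher and 33 were not called, or 13.2% called against 22.8% over all, with a median of -0.08. The lower genes with the largest changes were ANKRD33B (-0.45, edgeR adjusted p = 0.0035), ANKRD52 (-0.32, edgeR adjusted p = 0.0013) and ANKRD17 (-0.22, edgeR adjusted p = 0.0042).

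**Figure D5:**
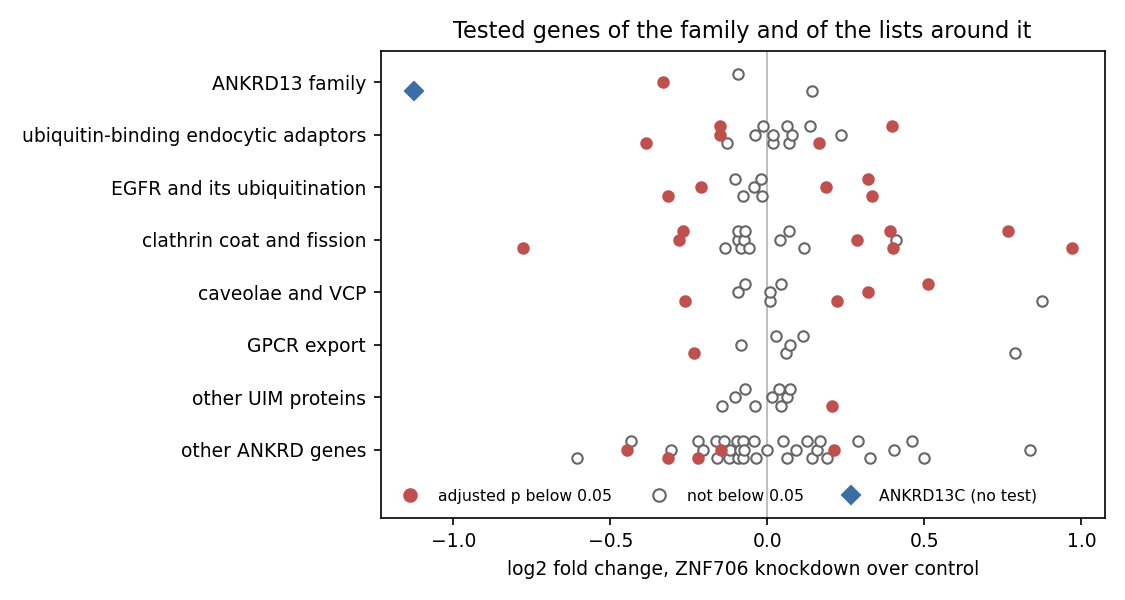
Log2 fold change (horizontal axis, knockdown over control) of every tested gene of the ANKRD13 family and of 7 lists. Filled red circles have an edgeR adjusted p below 0.05, open circles do not, and the blue diamond is ANKRD13C at -1.13, for which no test is given. No tested gene of the 7 lists lies as low as ANKRD13C.

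Finally, the genes whose CPM pattern over the 6 samples was most like that of ANKRD13C were sought by the root mean square difference of log2 CPM, centred on each gene's mean. FGL1, a hepatokine of the fibrinogen family, was the nearest with a difference of 0.038. Its counts were 1020, 1044 and 888 in the controls and 530, 517 and 500 after knockdown. CYGB (0.11), a cytoglobin, ACSF2 (0.11), an acyl-CoA synthetase, PHGDH (0.12), the first enzyme of serine synthesis, and C4A (0.12), a complement component, followed. Their log2 fold changes were -1.08 for FGL1, -1.18 for CYGB, -0.93 for ACSF2, -1.07 for PHGDH and -0.90 for C4A, whose reads may be shared with its near-identical copy C4B. The other members of the family were farther from ANKRD13C, at 0.41 for ANKRD13D, 0.52 for ANKRD13A and 0.65 for ANKRD13B. These differences are a description over 6 samples, and nothing about shared control follows from them.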

How the data were processed

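The authors deposited raw counts per gene and FPKM values for 6 samples, made from reads trimmed with cutadapt 1.9 (per the labels) and mapped to GRCh38 with HISAT2. The counting program, strand setting and annotation release are not given in the sources used here. The FPKM values were scaled by the authors to gene length and library size. The members and lists were chosen with earlier results of these data known.

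From the counts, the 18390 genes kept by filterByExpr were scaled by TMM and tested by edgeR 4.0.16 (glmQLFit, glmQLFTest, group term only) in R 4.3.3, and p-values were adjusted by Benjamini-Hochberg over all of them at a threshold of 0.05. The study itself used DESeq2. Standard errors and 95% intervals are from the same fit. The script was tested on simulated counts. The chi-square per gene was 12.8 to 22.2 within groups and 45.9 to 53.9 between them, so no sample looked like another's library deposited again. The depth was 62684076 to 69057423 counts per sample.

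Named genes were the 4 members, ZNF706, genes that overlap a member or lie within 100 kb of ANKRD13C, EGFR, CBL, VCP, CAV1 and PTGDR, at most 3 called genes with the largest change per list, and the 5 nearest patterns among genes whose mean count reached 50. Proteins were translated from GENCODE release 29, in place of the RefSeq proteins planned, and aligned with Biopython 1.88 (BLOSUM62). The alternatives were DESeq2 1.42.0 (Wald test), its size factors in edgeR, library size alone, no filter, a floor of 50 on the mean count, the replicate number as a block, each sample left out, limma 3.58.1 on log2(FPKM + 0.1) or log2(FPKM + 1) where the mean FPKM reached 1, or without that filter, and other motif searches.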

Additional observations from a re-analysis of the deposited data

How the results depend on the processing

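The number of genes called was 4192 in the reported fit, 2648 to 3424 with a sample left out (2648 without knockdown replicate 2) and 2668 by limma on FPKM without a filter. ANKRD13C kept its direction throughout, with a log2 fold change of -1.18 to -1.08 with a sample left out and -0.90 on log2(FPKM + 1). ANKRD13D kept its direction but was no longer past the threshold with library size alone (-0.28), without a filter (-0.33), and by limma on log2(FPKM + 0.1) with a filter (-0.27), on log2(FPKM + 1) (-0.19) and on log2(FPKM + 0.1) without a filter (-0.27). With a sample left out it was -0.38 to -0.26. The cause was not tested. ANKRD13A was -0.13 to -0.06 and ANKRD13B 0.06 to 0.19 with a sample left out.

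Deviations of samples with the same replicate number were hardly correlated, at 0.038, -0.041 and -0.025 for replicates 1, 2 and 3. The highest correlation with a sample of another number was 0.021, 0.079 and 0.022. With 3 samples per group these values show no pairing and cannot exclude one. With the replicate number as a block 4361 genes were called, and ANKRD13D was -0.33 (edgeR adjusted p = 0.056).

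Calls among the adaptors numbered 5, against 3 without a filter, 2 by limma without a filter and 2 to 4 with a sample left out. For EGFR and its ubiquitination they numbered 3 to 5 with a sample left out, for caveolae and VCP 4 to 5, for the clathrin list 7 to 9 (5 by limma without a filter, 12 with library size alone and 10 by DESeq2, against 8), for the other UIM proteins 1 to 2 and for the other ANKRD genes 3 to 5 (3 by limma without a filter). For GPCR export 0 were called by limma without a filter. In the proteins, a shorter pattern of alanine, 3 residues and serine matched the last 150 residues 4 times in ANKRD13A, 5 times in ANKRD13B, 0 times in ANKRD13C and 3 times in ANKRD13D, and the original pattern matched the whole ANKRD13C protein 1 time. Scaling by library size alone moved the median log2 fold change of all genes from 0.0095 to 0.063. Of the neighbours of ANKRD13C, HHLA3 changed sign under 1 and LRRC40 under 4 of 15 alternatives, neither of them ever called. Limma on FPKM without a filter also lost the calls of C12orf76 (adjusted p = 0.056), ANKRD17 (0.055) and REEP3 (0.069). Depth limits HHLA3, with 105 to 146 counts per sample.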

Other observations

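Relatives from the GIT and SSH gene families lie beside ANKRD13A, ANKRD13B and ANKRD13D, and these neighbours were looked at after the other values had been seen. GIT2, which encodes an ARF GTPase-activating protein that binds GPCR kinases, lies 2797 bases from ANKRD13A, and its relative GIT1 lies 121 bases from ANKRD13B. GIT2 fell by 0.14 on the log2 scale (edgeR adjusted p = 0.049), a call lost under 11 of 15 alternatives, and GIT1 did not pass the test (0.01, edgeR adjusted p = 0.94). SSH2, which encodes a phosphatase that activates the actin-severing protein cofilin, lies 11177 bases from ANKRD13B, and its relative SSH3 lies 994 bases from ANKRD13D. SSH2 rose by 0.19 (edgeR adjusted p = 0.017), a call kept under 9 of 15 alternatives, and SSH3 did not pass the test (0.14, edgeR adjusted p = 0.18) but was called under 2 of 15 alternatives.

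The values of 5 other genes near these members, picked after they were seen, are given as a description and without p-values. IFT81, which encodes a subunit of the intraflagellar transport complex of cilia, rose by 0.87 on the log2 scale (standard error 0.13). TAOK1, a kinase gene, fell by 0.37 (standard error 0.041), and KDM2A, a histone demethylase gene, fell by 0.36 (standard error 0.040). These 3 genes kept their direction under all 15 alternatives. The log2 fold change was 0.18 (standard error 0.092) for TCHP, near ANKRD13A, and -0.06 (standard error 0.038) for GRK2, near ANKRD13D. With a sample left out TCHP was 0.11 to 0.25 and GRK2 -0.08 to -0.04. ANKRD13A, near IFT81, and ANKRD13B, near TAOK1, were not called, and ANKRD13D, near KDM2A, was called lower (-0.33, edgeR adjusted p = 0.036). Whether neighbours change together was not tested.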
